A study of Mus musculus with 4 samples.

Results

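Cycling leukocytes of the mouse hindpaw were defined as barcodes with at least 1 UMI each of Mki67, Top2a and Ptprc, among barcodes with at least 200 detected genes and at most 10% mitochondrial UMIs. A UMI is a molecular identifier that marks 1 captured RNA molecule. The rule found 788 cells among 24138 Ptprc-positive cells, from 27800 barcodes within the limits and 30793 barcodes in all. Each member was then given to the first lineage rule that it met. They were 94 macrophages (at least 10 UMIs of C1qa, C1qb and C1qc together), 295 T cells (at least 1 UMI of Cd3e), 104 ILC2-like cells (at least 2 UMIs of Gata3 and none of Cd3e), 219 dendritic cells (at least 10 UMIs of H2-Aa and fewer than 5 of C1q) and 76 others. Since the members were chosen by their Mki67, Top2a and Ptprc counts and grouped by lineage genes, the levels of the rule's genes and of the genes of the cell cycle lists are given as a description with no test.

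Single-cell RNA sequencing was performed on CD45+ cells sorted from collagenase-digested hindpaws of perfused male mice. The groups were Lepr db/db (DB) mice of strain C57BLKS/J-Dock7m +/+ Leprdb, a type 2 diabetes model whose leptin receptor is defective in every tissue, and Lepr WT/WT (WT) littermates, each at 12 and at 21 weeks of age. Each of the 4 conditions was 1 library from cells pooled from 2 to 3 mice, so no test between conditions was possible and intervals on shares and levels cover counting error only. The 12-week libraries were counted with Cell Ranger 5.0.0 and the 21-week libraries with Cell Ranger 6.0.0 per the file headers, so age and software version cannot be told apart. Ptprc-positive cells held 43874527, 53310281, 65379757 and 49115385 UMIs in WT and DB at 12 weeks and then WT and DB at 21 weeks, and values of all 4 libraries are given in this order throughout. Pairs of libraries shared 6 to 154 barcodes, of which 1 cycled in both. Members were frequent among these barcodes at 12 weeks. Of leukocytes in one 12-week library whose barcode was also in the other, 10 of 25 cycled in WT and 7 of 25 in DB. Over all pairs, 10 of 41, 11 of 60, 2 of 42 and 1 of 44 leukocytes with such a barcode cycled, and shares without them are given below.

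A dividing cell copies its DNA in S phase and separates the copies in mitosis, and each step needs its own transcripts. S phase genes are switched on by E2F factors, and genes of G2 and mitosis by complexes that bind the CCAAT box and the cell cycle genes homology region (CHR). Resident macrophages, dermal T cells and ILC2 can maintain their numbers by dividing in place, whereas mature neutrophils and mast cells divide little. Mki67 (ENSMUSG00000031004, chr7:135689784-135716361, minus strand of GRCm38) encodes Ki-67, which coats mitotic chromosomes. Top2a (ENSMUSG00000020914, chr11:98992943-99024189, minus strand) encodes the topoisomerase that untangles DNA, and Ptprc (ENSMUSG00000026395, chr1:138062861-138175708, minus strand) encodes CD45.

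The start regions of the cycle genes are shown because the members share these genes. RefSeq windows of build GRCm38.p6, from 250 bases before to 50 bases after a start, were matched by symbol for 27 of 35 genes of a DNA replication list and 32 of 38 genes of a mitosis list. Windows on a single chromosome were left out, and a gene counted if any of its windows held the motif on either strand. TTCCCGC, a core of the E2F element, was found for 10 of the replication genes (37%) and 0 of the mitosis genes, against 5.29% of all 27025 genes with a window. TTTGAA, the core of the CHR, was found for 65.6% of the mitosis genes, 14.8% of the replication genes and 20.2% of all genes. CCAAT was found for 75%, 63% and 41.1% in the same order. The 250 bases before the start are printed for Rrm1 and Mcm7, the replication genes of highest level in cycling cells whose bases held TTCCCGC, and for Ube2c and Prc1, the mitosis genes of highest level whose bases held TTTGAA. Capitals mark these motifs and CCAAT on either strand, and no binding was measured.
Rrm1 (chr7:102441445-102441694, plus strand): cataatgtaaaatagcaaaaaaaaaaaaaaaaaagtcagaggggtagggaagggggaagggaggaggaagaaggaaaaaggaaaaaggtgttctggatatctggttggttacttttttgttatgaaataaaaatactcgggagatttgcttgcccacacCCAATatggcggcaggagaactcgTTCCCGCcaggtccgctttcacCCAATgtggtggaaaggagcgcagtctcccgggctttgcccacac
Mcm7 (chr5:138171884-138172133, minus strand): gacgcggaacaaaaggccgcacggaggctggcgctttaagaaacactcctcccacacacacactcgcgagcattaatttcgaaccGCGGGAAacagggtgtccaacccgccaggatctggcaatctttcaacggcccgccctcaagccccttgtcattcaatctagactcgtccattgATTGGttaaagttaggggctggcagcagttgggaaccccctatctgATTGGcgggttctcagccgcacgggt
Ube2c (chr2:164769679-164769928, plus strand): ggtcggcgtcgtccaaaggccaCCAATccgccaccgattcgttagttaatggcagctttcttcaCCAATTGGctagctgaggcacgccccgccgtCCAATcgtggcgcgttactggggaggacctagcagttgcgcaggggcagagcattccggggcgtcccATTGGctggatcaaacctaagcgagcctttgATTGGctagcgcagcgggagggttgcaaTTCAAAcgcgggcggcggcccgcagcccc
Prc1 (chr7:80294226-80294475, plus strand): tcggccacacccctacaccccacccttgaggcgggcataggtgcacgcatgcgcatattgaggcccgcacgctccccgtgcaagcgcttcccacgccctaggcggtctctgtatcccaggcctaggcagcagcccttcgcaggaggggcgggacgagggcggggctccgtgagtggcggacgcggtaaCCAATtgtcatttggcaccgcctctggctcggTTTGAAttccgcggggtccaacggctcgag

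The cycling share was alike in 3 libraries and low in 21-week-DB. It was 4.15% in 12-week-WT (194 of 4672 Ptprc-positive cells, exact Clopper-Pearson 95% interval 3.598 to 4.76), 3.85% in 12-week-DB (230 of 5978, 3.37 to 4.37), 4.56% in 21-week-WT (299 of 6561, 4.07 to 5.09) and 0.938% in 21-week-DB (65 of 6927, 0.725 to 1.19). The ratio of the DB to the WT share was 0.927 (0.768 to 1.12) at 12 weeks and 0.206 (0.158 to 0.269) at 21 weeks, with 95% intervals. The 12-week interval includes no difference, and the 21-week libraries differed by more than counting error. With at least 2 UMIs of both gate genes the 12-week ratio was 0.752 (0.591 to 0.957), an interval that lies below 1. Without barcodes found in more than 1 library, an alternative chosen after seeing the data, the shares were 3.97%, 3.701%, 4.56% and 0.9298%. The planned background was neutrophils (at least 10 UMIs each of S100a8 and S100a9 and fewer than 5 of C1q). Of these, 11 of 326 (3.37%) met the cycling rule, near the share of all leukocytes, and 8 of the 11 held Camp, a granule gene of precursors. Mast cells were also counted (at least 5 UMIs each of Cpa3 and Cma1, and no lineage rule met), and 0 of 753 met the cycling rule. The exact 95% upper limit was 0.489%, and 3 counts of the total would be 0.398%. Their median was 2165 UMIs per cell against 15166 in cycling cells, so this limits the share that met the rule at that depth, not the share that cycled.

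**Figure D1:**
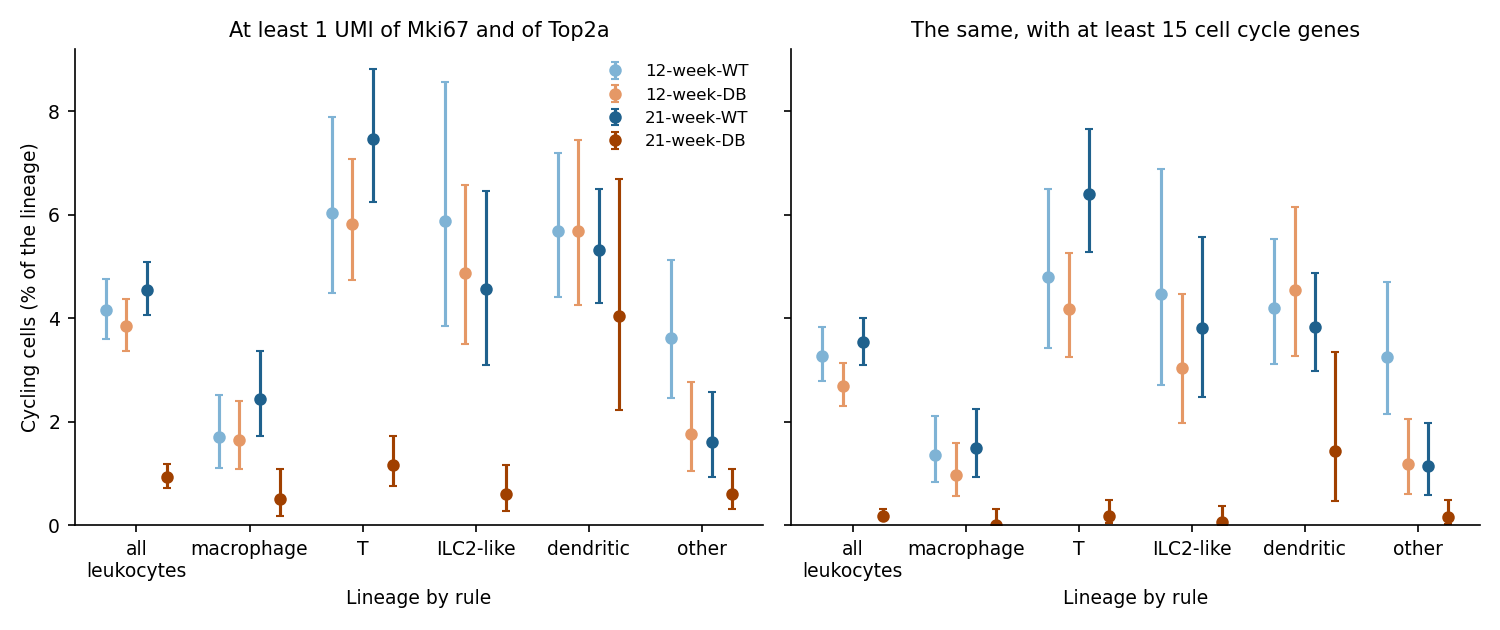
Share of cells that cycle (percent, y axis) in each library, for all Ptprc-positive leukocytes and for each lineage (x axis), with exact 95% binomial intervals. The left panel uses the rule alone and the right panel adds at least 15 detected cell cycle genes. Of all leukocytes, 21-week-DB lies at 0.938% and 0.188%, below the other libraries in both.

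The members were deeper than the other cells, and a fixed depth kept 21-week-DB lowest. Median UMIs per cell were 16375, 13203.5, 16986 and 10512 in cycling leukocytes and 7722, 7419, 8316 and 6022 in the others. With every cell thinned to 2000 UMIs, 1.44% (65 of 4517), 1.22% (70 of 5745), 1.59% (101 of 6366) and 0.202% (13 of 6441) still held both genes. This left out 155, 233, 195 and 486 shallower cells. Scrublet called 14.9%, 20%, 18.4% and 18.5% of cycling and 4.15%, 4.82%, 5.96% and 7.65% of other leukocytes doublets, so the share was higher among members of every library.

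Whether the members carried a broad cell cycle program was described by how many of the 73 replication and mitosis genes each cell held. The median was 45, 34, 41 and 6 in cycling leukocytes and 5, 5, 5 and 4 in the others. At least 15 of the genes were found in 153 of 194, 161 of 230, 232 of 299 and 13 of 65 members. The label was thus met by most members of the first 3 libraries, whereas most members of 21-week-DB held the gate genes with few others. Counting only members with at least 15 genes, 3.27%, 2.69%, 3.54% and 0.188% of leukocytes cycled, and the DB to WT ratio was 0.822 (0.661 to 1.02) at 12 weeks and 0.0531 (0.0304 to 0.0927) at 21 weeks.

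**Figure D2:**
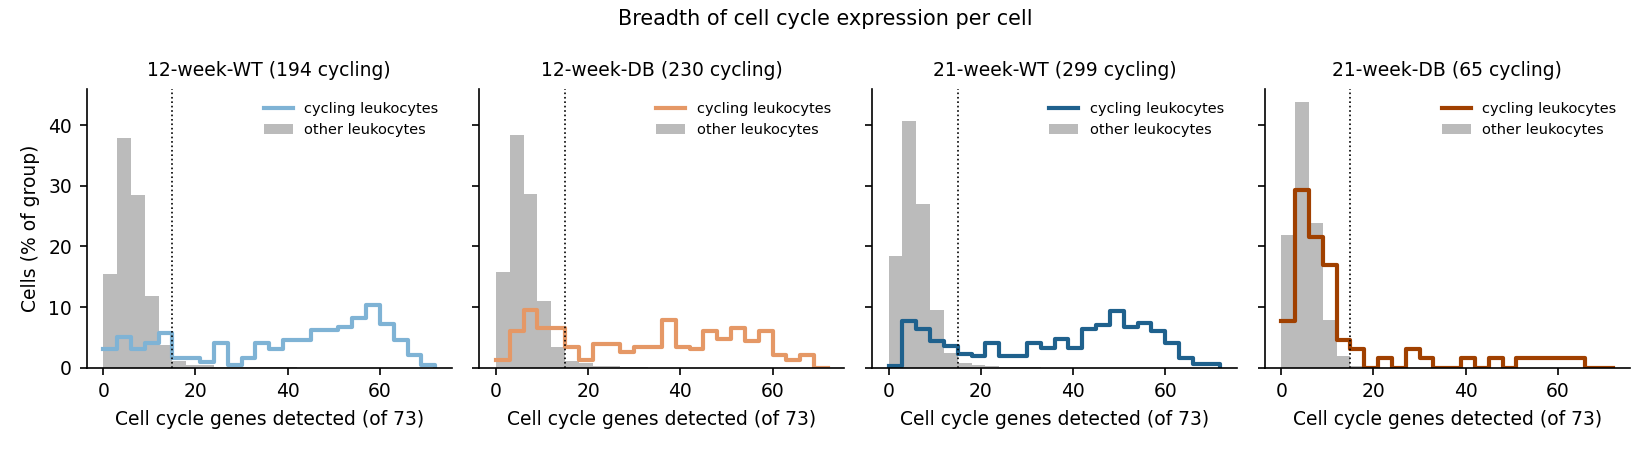
Distribution of the number of cell cycle genes detected per cell (x axis, of 73) in cycling and other leukocytes, as percent of each group (y axis), with 1 panel per library. The dotted line stands at 15 genes. To its right lie 153 of 194, 161 of 230, 232 of 299 and 13 of 65 cycling cells, in the order WT and DB at 12 weeks and at 21 weeks.

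Cells just inside and just outside the rule held different numbers of these genes. Of 142 members with exactly 1 UMI of Mki67 and 1 of Top2a, 20.4% held at least 15 list genes, compared with 95.99% of the 474 members with at least 2 of each. Of the 3636 leukocytes with one gene but not the other, 6.298% held as many. Members with 1 UMI of each numbered 24, 47, 44 and 27 by library, and 6, 12, 10 and 1 of them held at least 15 list genes. Of members with at least 2 UMIs of each, 128 of 132, 122 of 127, 198 of 201 and 7 of 14 did. Both kinds of member held fewer of these genes in 21-week-DB.

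Other division genes marked the members too. Stmn1, which encodes the microtubule regulator stathmin, was at 845, 649.8, 839.7 and 251 CPM (UMIs of the gene scaled to a fixed total per group of cells) in cycling and 27.8, 22.1, 18.1 and 21.2 CPM in other leukocytes. Birc5, the mitotic regulator survivin, was at 254, 165, 221 and 52.5 CPM in cycling cells, and Pclaf, a PCNA-binding factor, at 326, 269, 288 and 81.2 CPM. Each was lowest in 21-week-DB. Stmn1 was detected in 159, 168, 238 and 17 members, Birc5 in 137, 107, 182 and 7 and Pclaf in 136, 138, 208 and 10.

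Genes of DNA replication summed to 3310, 3270, 2828 and 1315 CPM in cycling and 659.7, 687, 528 and 619 CPM in other leukocytes. Pcna, the sliding clamp of DNA polymerase, was at 451, 405, 336 and 151 CPM in cycling cells. Its pooled level was 2.72 times that of other leukocytes, whereas that of Rrm2, the regulated subunit of ribonucleotide reductase, was 49.9 times, at 156 CPM. Dut, which removes dUTP, and Rrm1, the partner of Rrm2, had pooled levels of 162 and 160.1 CPM.

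Mitotic genes were lower outside the cycling cells and had larger folds. Their list summed to 5337, 3536, 4050 and 1364 CPM in cycling and 358, 316, 297 and 305 CPM in other leukocytes. Ube2c, the ubiquitin carrier of the anaphase-promoting complex, was at 309, 153, 266 and 38.7 CPM in cycling cells, a pooled fold of 138. Ccna2, the cyclin of S phase and G2, had a pooled fold of 202, and Nusap1, a spindle protein, one of 126. Smc4 of condensin was at 410.1, 295, 353 and 177 CPM.

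The balance between replication and mitosis differed between libraries. Replication genes took 38.3%, 48.04%, 41.1% and 49.1% of the UMIs on both lists in cycling cells. Among members with at least 15 list genes, 60 of 153, 89 of 161, 110 of 232 and 9 of 13 had more replication than mitosis UMIs. Over all members the DB library held the larger share at each age, but not in every lineage. In cycling T cells taken alone the shares were 48.8%, 43.9%, 41.8% and 44.2%, with WT above DB at 12 weeks, and at 21 weeks those with at least 15 list genes were at 41.5% in WT and 35.1% in DB. In ILC2-like cells at 21 weeks the share was 33.98% in WT and 26.8% in DB.

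Genes of cycle entry and its brakes differed less. Their list summed to 3081, 3515, 2793 and 3968 CPM in cycling and 3127, 3444, 3034 and 4015 CPM in other leukocytes. Btg1, an antiproliferative gene, was at 1069, 1350, 994 and 2066 CPM in cycling and 1417, 1653, 1355 and 1903 CPM in other cells. The p21 gene Cdkn1a, an inhibitor of cyclin-dependent kinases, was at 302, 282, 276 and 343 CPM against 319, 281, 315 and 428 CPM. E2f7 and E2f8, repressors that limit E2F activity, stood apart with pooled folds of 44.1 and 13.6.

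Levels over all leukocytes, which do not use the rule, were lowest in 21-week-DB for both lists and for Birc5, Pclaf and Top2a. The replication list summed to 868, 851.5, 719 and 631 CPM and the mitosis list to 749, 522, 610 and 323 CPM. Birc5 was at 23.5, 12.6, 21.5 and 1.55 CPM (exact Poisson 95% interval of the last 1.22 to 1.94), and Pclaf at 28.7, 19.8, 26.9 and 2.61 CPM (2.17 to 3.099). Top2a was at 68.3, 44.3, 49.4 and 14.2 CPM. Mki67 differed from them, at 52.8, 41.6, 72.99 and 41.7 CPM, so that 21-week-DB stood level with 12-week-DB. Cycling cells held 78.1%, 64.6%, 63.7% and 12.5% of all Mki67 UMIs of leukocytes.

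In 21-week-DB, Mki67 outside the cycling cells was highest in dendritic cells and macrophages. In non-cycling dendritic cells it was at 13.5, 20.9, 33.4 and 106 CPM. In non-cycling macrophages of all 4 libraries it was at 13.1, 12.5, 34.05 and 58.3 CPM, and in T cells at 14.03, 18.9, 23.9 and 17.5 CPM. Top2a in the same dendritic cells was at 14.6, 8.41, 6.15 and 2.82 CPM. Of 670 leukocytes of 21-week-DB with Mki67 but no Top2a, 5 held at least 15 list genes.

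**Figure D3:**
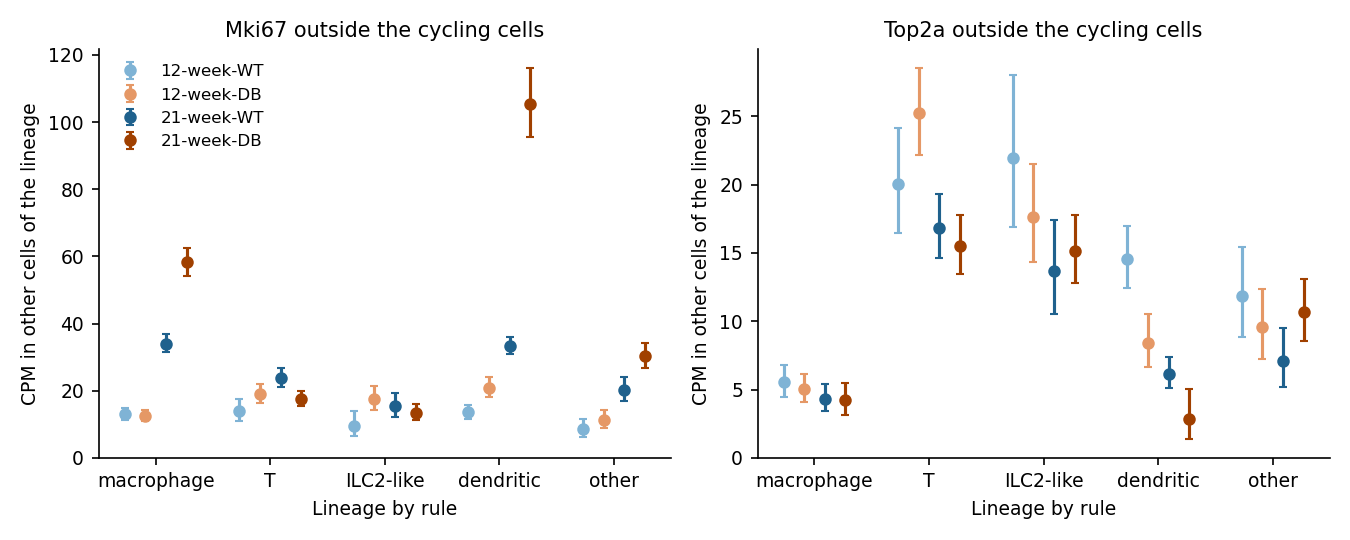
Level of Mki67 (left) and Top2a (right) in CPM (y axis) in cells that do not cycle, by lineage (x axis) and library, with exact 95% Poisson intervals. Mki67 reaches 106 CPM in dendritic cells of 21-week-DB, where Top2a is at 2.82 CPM.

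Lineages differed in how many of their cells cycled. T cells cycled at 6.03% (49 of 813, 4.49 to 7.89), 5.83% (95 of 1630, 4.74 to 7.08), 7.46% (126 of 1689, 6.25 to 8.82) and 1.17% (25 of 2130, 0.761 to 1.73), and the interval of 21-week-DB lay below the other 3. ILC2-like cells cycled at 5.88% (25 of 425), 4.87% (40 of 821), 4.57% (30 of 656) and 0.612% (9 of 1471). The DB to WT ratio at 21 weeks was 0.157 (0.103 to 0.2405) in T cells and 0.134 (0.0639 to 0.2802) in ILC2-like cells. Macrophages cycled at 1.71% (25 of 1462), 1.66% (27 of 1630), 2.45% (36 of 1470) and 0.504% (6 of 1190), with a ratio at 21 weeks of 0.206 (0.0871 to 0.487). At least 15 list genes were held by 20 of 25, 16 of 27, 22 of 36 and 0 of 6 cycling macrophages. Counting only members with at least 15, the 21-week ratio was 0.0294 (0.0109 to 0.0795) in T cells and 0.0178 (0.00242 to 0.131) in ILC2-like cells. After thinning to 2000 UMIs it was 0.0584 (0.0212 to 0.161) in T cells, 0.104 (0.0297 to 0.363) in ILC2-like cells and 0.354 (0.0736 to 1.699) in macrophages, where 7 WT and 2 DB cells were left and the interval includes no difference.

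Dendritic cells had the ratio nearest to 1 at 21 weeks. They cycled at 5.69% (65 of 1142), 5.695% (50 of 878), 5.32% (90 of 1693) and 4.05% (14 of 346, 2.23 to 6.696), a 21-week ratio of 0.761 (0.439 to 1.32). With at least 15 list genes the shares were 4.203%, 4.56%, 3.84% and 1.45%, and the ratio was 0.376 (0.153 to 0.928). After thinning it was 0.489 (0.115 to 2.08). The high Mki67 of non-cycling dendritic cells of 21-week-DB stood beside this, and its part in the result was not tested. At 12 weeks the ratio was 0.969 (0.565 to 1.66) in macrophages, 0.967 (0.692 to 1.35) in T cells, 0.828 (0.5096 to 1.35) in ILC2-like cells and 1.001 (0.699 to 1.43) in dendritic cells, all with intervals that include no difference.

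Some of the 76 members outside these lineages held transcripts of precursor cells. Mpo, a granule enzyme of granulocyte precursors, was held by 8 of 30, 2 of 18, 0 of 17 and 0 of 11 such members. Camp, a granule gene of later precursors, was held by 10, 1, 1 and 0 and Igll1, of developing B cells, by 6, 2, 0 and 0. Most of these members came from 12-week-WT. Over all leukocytes, 7 markers of granulocyte precursors summed to 2719, 350, 252 and 3.75 CPM in cycling cells. In other cells they summed to 164.5, 22.3, 83.7 and 26.1 CPM. This group cycled at 3.61% (30 of 830), 1.77% (18 of 1019), 1.61% (17 of 1053) and 0.615% (11 of 1790). The DB to WT ratio was 0.489 (0.274 to 0.8704) at 12 weeks and 0.381 (0.179 to 0.8095) at 21 weeks. After thinning the ratios were 0.417 (0.169 to 1.03) and 0.252 (0.0489 to 1.29), with intervals that include no difference. The part of precursor cells in these ratios was not tested. Of the cycling barcodes also found in another library, 6 of 10 in 12-week-WT were in this group. Without such barcodes the 12-week ratio was 0.608 (0.332 to 1.11), which includes no difference, and the 21-week ratio was 0.38 (0.179 to 0.807). Among cells with at least 10 UMIs each of S100a8 and S100a9 and fewer than 5 of C1q, 8 of 101, 1 of 74, 2 of 110 and 0 of 41 cycled. Of these 11 cells, 8 held Camp, with 6125, 1081, 1272 and 0 UMIs of it by library.

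Cycling cells were compared with the other cells of their lineage by edgeR's quasi-likelihood test on summed counts, with the library as a block and Benjamini-Hochberg adjustment. Libraries with at least 10 cycling cells of the lineage entered, which left out 21-week-DB for macrophages and ILC2-like cells, whose values are then given for the other 3 libraries. The gate genes, the genes of the lineage rules and the cell cycle lists were not tested. The lineage rules ask fixed UMI counts, so deeper cells can enter with lower levels of the rule's genes. In macrophages, T cells, ILC2-like cells and dendritic cells, median UMIs per cell were 17032.5, 12578, 12233.5 and 20163 in cycling cells. In other cells they were 10570.5, 5887, 6490 and 10981. The part of this in the differences below was not tested. All 35 replication and 38 mitosis genes had a higher fitted level in cycling cells of each lineage. The median log2 difference in macrophages, T cells, ILC2-like cells and dendritic cells was 2.42, 2.37, 2.42 and 2.93 for replication and 4.87, 4.76, 5.09 and 4.55 for mitosis, where the median of all genes tested was -0.04, -0.01, -0.03 and -0.03. Hist1h2ap and Hist1h2ae, which encode histones, were among the 8 largest rises in every lineage. Such genes of division outside the lists were tested and count among the genes called below, and their rise follows from how the members were chosen.

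**Figure D4:**
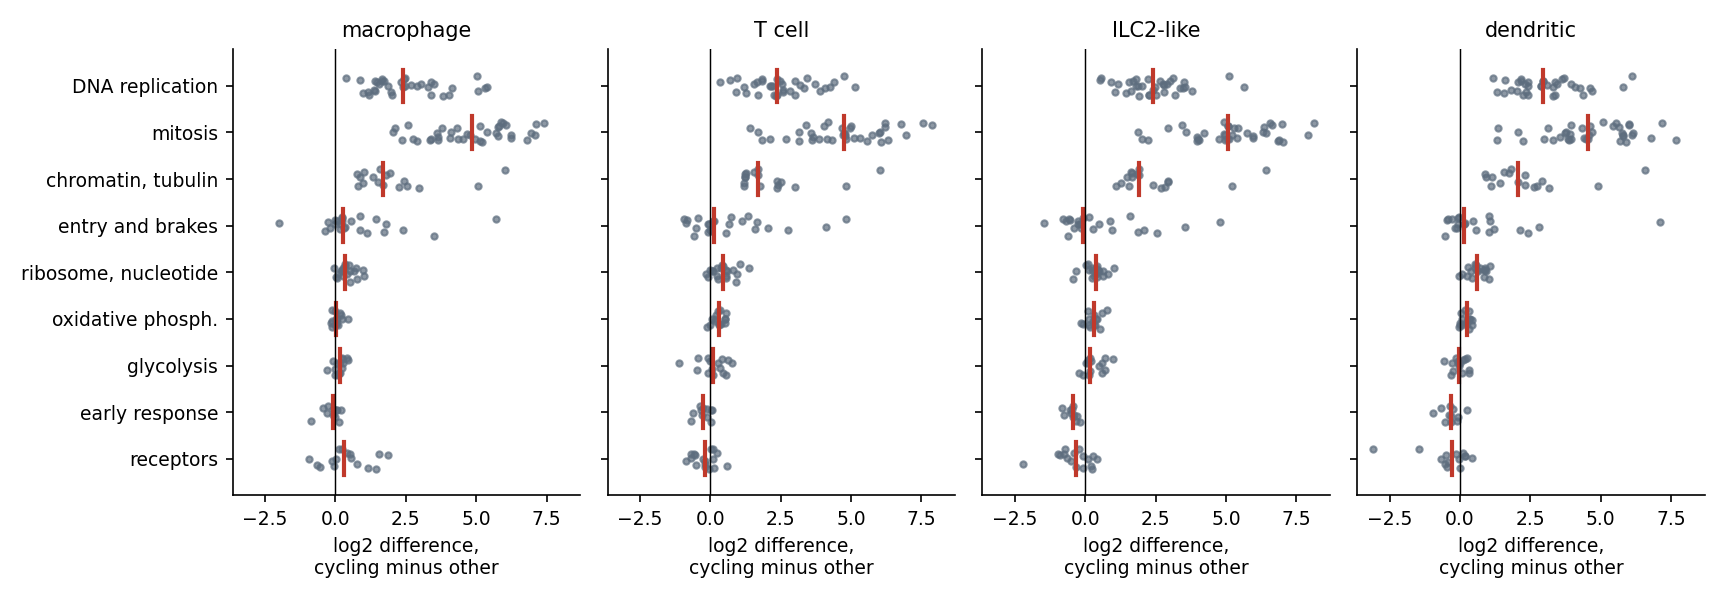
Log2 difference between cycling and other cells (x axis) for each gene of 9 lists (points, rows) in 4 lineages (panels), with the median of each list as a red bar. Replication and mitosis genes follow from the rule, with medians from 2.37 to 5.09. Medians of the ribosome, oxidative phosphorylation, glycolysis, early response and receptor lists lie between -0.44 and 0.61.

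In macrophages, 11.4% of 11963 genes passed an adjusted p of 0.05, with 701 higher (5.86%) and 666 lower (5.57%) in cycling cells. Of 28 genes of macrophage subsets, 18 were lower and 4 higher, with a median of -0.76. Of 5 markers of monocyte-derived cells, 4 were lower and 0 higher, with a median of -1.21, and their part in the result was not tested. Retnla, a secreted protein of alternatively activated macrophages, was at 248, 69.9 and 438 CPM in cycling and 2022, 924 and 2978 CPM in other macrophages (log2 -3.09, SE 0.13, adjusted p 7.68e-19). Lyve1, a hyaluronan receptor of perivascular macrophages, was at 457, 679.7 and 563 against 1335, 1140 and 1692 CPM (log2 -1.33, SE 0.12, adjusted p 4.61e-10). Vsig4, a complement receptor of resident macrophages, was at 77.1, 146 and 238 against 489, 268 and 588 CPM (log2 -1.57, SE 0.17, adjusted p 1.10e-08). Cycling macrophages lay below the others for all of these genes in each library fitted. The lipid carrier gene Apoe (-1.63 on the log2 scale), the chemokine gene Ccl8 (-3.42) and the growth factor receptor gene Csf1r (-0.92) fell as well.

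H2-Ab1 and Ccl17 went the other way. H2-Ab1, a chain of MHC class II, was at 3009, 2048 and 3503 against 1875, 1472 and 2756 CPM (log2 0.46, SE 0.10, adjusted p 0.000967). Ccl17, a chemokine that draws T cells, was at 1029, 78.7 and 585 against 195, 31.6 and 78.5 CPM (log2 2.34, SE 0.16, adjusted p 3.60e-13). H2-Ab1 was higher in cycling macrophages of each library fitted. For Ccl17, 1 barcode gave 282 of 507 UMIs in 12-week-WT and 1 gave 27 of 36 in 12-week-DB, where barcodes of 1 lineage rule were at 34.8 CPM in cycling and 33.2 CPM in other macrophages. In the 6 cycling macrophages of 21-week-DB, which were not fitted, H2-Ab1 was lower, at 251 against 738 CPM, and 0 UMIs of Ccl17 were found (exact Poisson upper limit 71.2 CPM) against 47.6 CPM, which this depth cannot tell apart. Some markers of dendritic cells were higher in the same barcodes. All 4 tested markers of type 2 dendritic cells, H2-Ab1 among them, were higher, 5 of 14 genes of dendritic cell subsets were higher and 0 lower, and 2 of 5 markers of Langerhans-like cells were higher. Xcr1, a chemokine receptor of type 1 dendritic cells, was found in 7.45% of cycling and 0.884% of other macrophages, and Epcam, an adhesion gene of Langerhans cells, in 12.8% and 2.598%. With doublets removed, 3 of 4 type 2 markers and 1 of 13 subset genes were higher, where 345 of all 11513 genes tested were. The part of dendritic cell RNA in H2-Ab1 and Ccl17 was not tested.

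T cell transcripts were also higher in the macrophage barcodes. Of 19 tested genes of T cell subsets, 12 were higher and 1 lower, and Trdc, the constant region of the delta chain, was at 22.3, 63.4 and 141 against 16.5, 14.8 and 19.5 CPM. Cd3e was held by 1 of 25, 9 of 27 and 10 of 36 cycling macrophages, and Scrublet called 34.04% of cycling and 8.095% of other macrophages doublets. Without barcodes that met more than 1 lineage rule, 24, 16 and 26 cycling macrophages were left, and Trdc was at 2.096, 0 and 8.16 CPM. In that fit, chosen after seeing the data, 1 of 13 T cell genes was higher and 1 lower, where 565 of all 11584 genes tested were higher and 655 lower. Of 28 macrophage genes, 17 were lower and 5 higher, with log2 differences of -1.82 for Lyve1, -2.22 for Vsig4 and 0.70 for H2-Ab1. The macrophage and dendritic rules cannot both be met, so that fit keeps barcodes with dendritic cell transcripts, and 4 of 4 type 2 dendritic markers were higher in it.

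In T cells, 15.3% of 10850 genes passed, 937 higher (8.64%) and 720 lower (6.64%). Of 23 genes of T cell subsets, 8 were lower and 0 higher, with a median of -0.37. The lower genes included all 4 tested markers by which the study annotated dendritic epidermal T cells, Cd7, Fermt2, Trat1 and Gem. Cd7, a surface glycoprotein, was at 19.3, 71.7, 9.22 and 15.7 CPM in cycling and 186, 331, 44.2 and 76.8 CPM in other T cells (log2 -2.41, SE 0.18, adjusted p 2.90e-06). Fermt2, which encodes the integrin activator kindlin-2, was at 11.9, 30.6, 6.14 and 0 against 94.7, 214, 22.9 and 64.5 CPM (log2 -2.70, SE 0.24, adjusted p 1.42e-05). Both were lower in cycling T cells of all 4 libraries. Cd7 was detected in 14.2% of cycling and 21.8% of other T cells, although the cycling cells were deeper.

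The receptor genes Trdc and Trac did not pass. Trdc was at 859.5, 648, 717 and 528 against 903, 921, 646 and 794 CPM (adjusted p 0.264), and Trac, the constant region of the alpha chain, at 169, 156, 231 and 254 against 178, 169, 175 and 166 CPM (adjusted p 0.287). Foxp3, the factor of regulatory T cells, was at 16.3, 22.4, 26.6 and 54.8 against 32.8, 34.5, 32.7 and 48.6 CPM (adjusted p 0.167). Of 295 cycling T cells, 154 held Trdc (52.2%) and 166 Trac (56.3%), at a median of 12578 UMIs. As a background, 5.85% and 3.06% of non-cycling macrophages did, at a median of 10570.5 UMIs. Of 5 markers by which the study annotated dermal gamma-delta T cells, 3 were lower and 0 higher, with a median of -0.53. They were the scavenger receptor gene Cd163l1 (log2 -0.68, SE 0.16, adjusted p 0.0146), the chemokine receptor gene Cxcr6 and the thrombin receptor gene F2r. Also lower was the cytokine receptor gene Il7r (log2 -0.69, SE 0.15, adjusted p 0.00888).

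Some metabolic genes were higher in cycling T cells. Of 20 genes of ribosome biogenesis and nucleotide synthesis, 8 were higher and 0 lower, with a median of 0.44. The number higher was 5 without 12-week-WT, 4 without 12-week-DB, 2 without 21-week-WT and 10 without 21-week-DB, where over all genes tested it was 551 of 11528, 549 of 10856, 465 of 10955 and 1194 of 10957 in the same order. Without barcodes found in more than 1 library it was 5, where 751 of 10799 genes were higher. Paics, an enzyme of purine synthesis, was at 117, 114, 91.7 and 39.1 against 56.1, 49.3, 41.4 and 39.98 CPM (log2 1.04, SE 0.16, adjusted p 0.000916), with no rise in 21-week-DB. Of 15 glycolysis genes, 5 were higher and 2 lower, and of 15 genes of oxidative phosphorylation, 5 were higher and 0 lower. Of all genes tested, 8.64% were higher and 6.64% lower. All 5 mast cell markers were lower in cycling T cells, and Scrublet called 17.3% of cycling and 6.72% of other T cells doublets. Of markers of type 1 dendritic cells, 2 of 4 were higher, as were 3 of 12 genes of dendritic cell subsets, with 1 lower. More than 1 lineage rule was met by 37 of 295 cycling T cells. With barcodes of 1 rule, 0 of 3 type 1 markers and 0 of 9 subset genes were higher, where 941 of all 10368 genes tested were. The part of other cells and doublets in the remaining results was not tested.

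In ILC2-like cells, 11% of 9485 genes passed, 620 higher (6.54%) and 423 lower (4.46%). Of 17 genes known from ILC2, 8 were lower and 1 higher, with a median of -0.43. Gata3, the gene of the rule, was lower too and was not tested. In barcodes of 1 lineage rule it was at 673, 730 and 603 CPM in cycling and 1064, 1212 and 1005 CPM in other cells (log2 -0.74). The number of ILC2 genes lower was 5 without 12-week-WT, 10 without 12-week-DB and 5 without 21-week-WT. Over all genes tested it was 154 of 10363, 568 of 9561 and 172 of 9687 in the same order. Il1rl1, the receptor for the activating cytokine IL-33, was at 49.2, 262 and 10.4 CPM in cycling and 336, 472 and 383 CPM in other ILC2-like cells (log2 -2.20, SE 0.35, adjusted p 0.000157). Il2ra, a chain of the IL-2 receptor, was at 161, 377 and 237 against 323, 506 and 404 CPM (log2 -0.73, SE 0.14, adjusted p 0.000894), and Lmo4, a transcriptional cofactor, at 298, 349.7 and 314 against 599, 579 and 628 CPM (log2 -0.93, SE 0.12, adjusted p 1.23e-05). All of these were lower in cycling cells of each library fitted. The cytokine genes went different ways, with Il13 at 394, 455 and 414 against 262, 269.9 and 356 CPM (log2 0.49, SE 0.13, adjusted p 0.0165) and Il5 at 19.1, 56.05 and 16.6 against 26.8, 82.2 and 64.8 CPM (log2 -0.98, SE 0.28, adjusted p 0.0272). With barcodes of 1 lineage rule, Il5 did not pass at the same fold (log2 -0.98, adjusted p 0.05996), and Il13 did (log2 0.62, adjusted p 0.0131). In the 9 cycling cells of 21-week-DB, which were not fitted, Il13 was at 239 CPM against 498 CPM.

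Energy genes and early response genes differed in ILC2-like cells too. Of 15 glycolysis genes, 5 were higher and 0 lower, where 6.54% of all genes tested were higher. Pgk1, a glycolytic kinase, was among the 5, at 257, 247 and 509.7 against 159.9, 171 and 156 CPM (log2 0.98, SE 0.17, adjusted p 0.000398). The glycolysis list summed to 2920, 3080 and 4585 against 2505, 2646 and 2704 CPM. In 21-week-DB, which was not fitted, it was lower in cycling cells, at 1960 against 2360 CPM. Of 15 genes of oxidative phosphorylation, 5 were higher. Of 11 early response genes, which also respond to tissue digestion, 7 were lower and 0 higher, and the number lower was 2 without 12-week-WT, 9 without 12-week-DB and 3 without 21-week-WT, beside the counts over all genes given above for these fits. All 4 tested mast cell markers were lower, and Scrublet called 14.4% of cycling and 4.59% of other ILC2-like cells doublets. All 4 tested markers of type 2 dendritic cells were higher in cycling ILC2-like cells, with a median of 0.65. With doublets removed 0 of 4 were higher, with a median of -0.33, where 467 of all 9240 genes tested were higher. With at least 2 UMIs of both gate genes, against cells with neither gene, 0 of 4 were, where 593 of all 9102 genes tested were. The part of mast cell RNA, dendritic cell RNA and doublets in the other differences was not tested.

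In dendritic cells, 16.9% of 9939 genes passed, 987 higher (9.93%) and 693 lower (6.97%). The H2-Aa rule also takes B cells, and all 5 B cell markers were lower in the cycling members. Cd79a, a part of the B cell receptor, was at 13.2, 14.04, 0 and 0 against 102, 32.3, 54.5 and 42.3 CPM and was detected in 7 of 219 cycling and 513 of 3840 other cells. All 5 markers of monocyte-derived cells were lower as well. Cd36, a scavenger receptor that takes up lipids, was at 26.4, 22.7, 12.2 and 11.6 against 129, 218, 32.5 and 179 CPM (log2 -2.48, SE 0.23, adjusted p 1.87e-06), lower in cycling cells of all 4 libraries. Markers of further cell types were lower too, 4 of 5 of mast cells (median -3.02), all 3 tested of neutrophils (median -3.25) and 3 of 5 of plasmacytoid dendritic cells (median -1.47). Scrublet called 11.4% of cycling and 3.33% of other cells of this rule doublets. The part of these cells in the other differences was not tested.

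Of 5 tested markers of type 1 conventional dendritic cells, 1 was higher and 0 lower. These were Irf8, Naaa and Tbc1d4, which the study used, with Xcr1 and Clec9a in place of its Cd207 and Cst3. Irf8, a factor that these cells need, was at 274, 239, 617 and 100.3 against 263, 167, 317 and 83 CPM (log2 0.52, SE 0.13, adjusted p 0.0129). Mgl2, a lectin of type 2 dendritic cells, was at 456, 524, 433 and 524 against 407, 515, 424 and 422 CPM (adjusted p 0.307). Xcr1, a type 1 chemokine receptor, did not pass (adjusted p 0.315) and was found in 7 of 65, 6 of 50, 19 of 90 and 0 of 14 cycling cells. The Langerhans cell lectin gene Cd207 (-1.18 on the log2 scale), which the study used as a type 1 marker, and the chemokine gene Ccl22 (-1.99) were lower.

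Of 19 tested ribosome and nucleotide genes, 14 were higher and 0 lower in cycling dendritic cells, with a median of 0.61, where 9.93% of all genes tested were higher. The number higher was 4 without 12-week-WT, 5 without 12-week-DB, 7 without 21-week-WT and 16 without 21-week-DB, where over all genes tested it was 542 of 9946, 646 of 9939, 568 of 9758 and 1311 of 10971 in the same order. Paics was at 95.1, 132, 99.02 and 84.8 against 59.3, 62.6, 49.5 and 45.1 CPM (log2 0.94, SE 0.12, adjusted p 3.11e-05) and was higher in all 4 libraries. Of 15 genes of oxidative phosphorylation, 6 were higher, and of 15 glycolysis genes, 0 were higher and 1 lower.

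**Figure D5:**
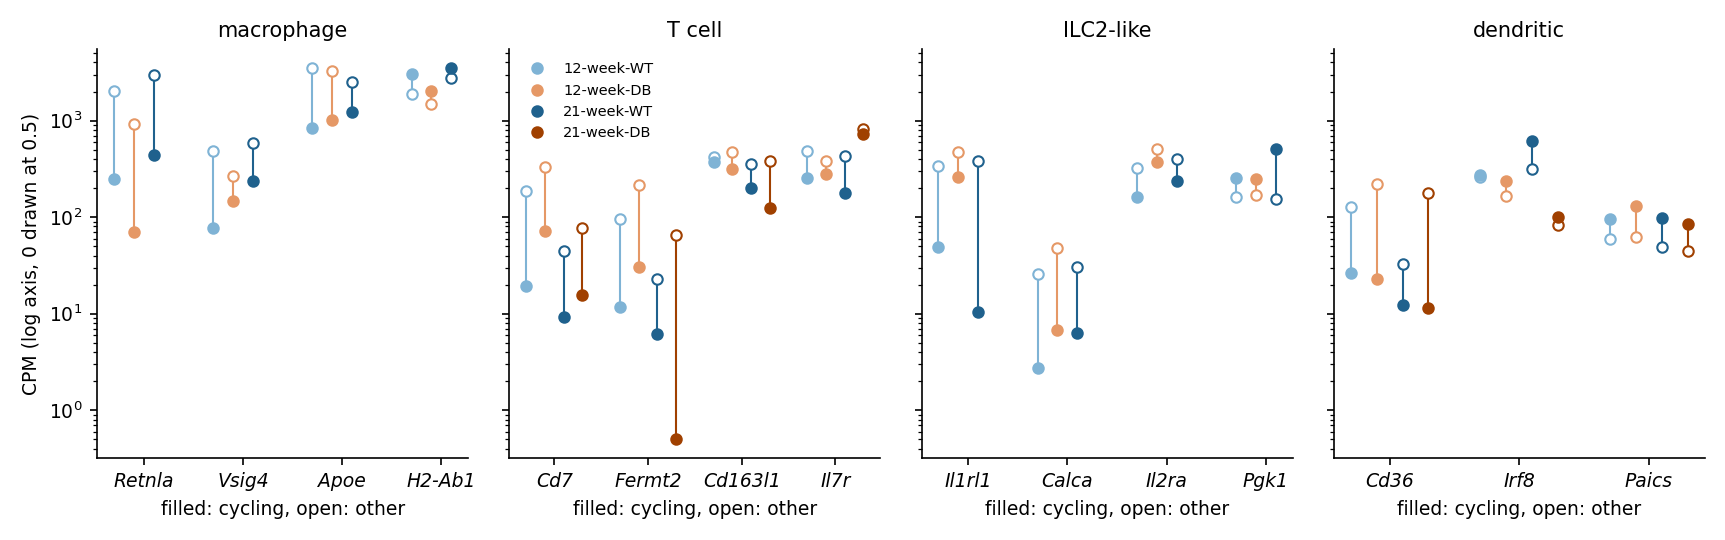
Levels of 15 genes in CPM (y axis, log scale, 0 drawn at 0.5) in cycling cells (filled) and other cells (open) of 4 lineages, joined per library. Retnla in macrophages, Cd7 and Fermt2 in T cells, Il1rl1 in ILC2-like cells and Cd36 in dendritic cells are lower in the cycling cells of every library drawn.

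Cycling macrophages and T cells of DB and WT were compared gene by gene at ages where each library held at least 20 of them, by the 5 highest and 5 lowest ratios of DB to WT among genes that reached 100 CPM in either library and 50 UMIs in both together. Other lineages were not compared in this way. In macrophages at 12 weeks (25 WT and 27 DB cells), the highest ratios were those of Areg, Ikzf2, Cd3g, Ets1 and Cd3e. Cd3g, a chain of the T cell receptor complex, was at 10.2 CPM in WT and 155 CPM in DB, with UMIs in 1 and 10 cells. More than 1 lineage rule was met by 1 of 25 WT and 11 of 27 DB cells. Without them Cd3g had 0 UMIs in WT and 1 in DB, Ikzf2 had 3 and 3, and Ets1, a transcription factor of lymphocytes, was at 12.6 and 8.698 CPM. Areg, the growth factor amphiregulin, stayed higher in DB, with 3 UMIs (6.29 CPM) in WT and 9 (39.1 CPM) in DB, and over all cycling macrophages 37 of its 56 DB UMIs came from 1 barcode. The lowest were those of Sparc, Cd207, Il1r2, Ccl17 and Tbc1d4. Cd207 was at 132 CPM in WT and listed at 0 in DB, and 63 of its 65 UMIs came from 1 barcode. A single barcode also gave most WT UMIs of the others, 56 of 89 for Sparc, 56 of 72 for Il1r2, 282 of 507 for Ccl17 and 68 of 107 for Tbc1d4.

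Some differences between cycling T cells also came from 1 cell. At 12 weeks (49 WT and 95 DB cells), Il1b was at 2.96 CPM in WT and 136 CPM in DB, where 128 of 182 UMIs came from 1 cell. Among the lowest ratios, Gm10827 had 84 UMIs in 4 WT cells and 0 in DB. The B cell marker Igkc, also among them, had 108 UMIs in WT, 59 from 1 cell, and 9 in DB. Ighm, another B cell marker, had 102 and 44. With barcodes of 1 lineage rule, Igkc had 3 and 4 UMIs and Ighm 24 and 32. The part of B cell RNA was not tested. Crem, a repressor of cAMP-driven transcription, had UMIs in 15 WT and 47 DB cells, at 54.8 and 218 CPM (log2 ratio 1.99, 95% counting interval 1.50 to 2.53). Other T cells had 252 and 571 CPM of Crem. Tppp3, a tubulin-binding protein, was at 505 CPM in WT, in 36 cells, and 190.5 CPM in DB, in 65 cells, where other T cells had 169 and 192 CPM.

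At 21 weeks (126 WT and 25 DB cells), division genes were among the lowest ratios. At least 15 list genes were held by 108 of 126 WT and 4 of 25 DB cells, so the WT and DB members differed in how many carried a broad program. Ccnb2, a mitotic cyclin, was at 144 CPM in WT and 19.6 CPM in DB, and Dtl, which marks replication proteins for destruction, at 103 and 7.83 CPM. They had UMIs in 69 and 75 WT cells and in 2 DB cells each. Tppp3 was also among the lowest, at 322 CPM in WT and 47 CPM in DB, where other T cells had 155 and 28.8 CPM. Hspb1, a small heat shock protein, was at 23.6 CPM in WT and 423 CPM in DB, and 104 of its 108 UMIs in DB came from 1 cell.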

How the data were processed

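CD45+ cells of 4 libraries were profiled by 10x 3′ single-cell RNA sequencing and aligned to mm10. The deposited matrices hold UMI counts per gene and barcode, which the authors made with Cell Ranger (5.0.0 per the labels; 5.0.0 and 6.0.0 per the file headers), before their ambient RNA correction, so no ambient RNA was removed here. The members and the gene lists were chosen with earlier results of these data known. Barcodes were filtered, assigned and counted as the report states, doublets were kept and Scrublet called them at 0.8% per 1000 barcodes, and counts were summed per library and lineage over cycling and other cells. Sums were compared with edgeR 4.0.16 in R 4.3.3 (TMM, filterByExpr, quasi-likelihood test, Benjamini-Hochberg adjustment over all genes tested) with the library as a block, since both sums come from the same library, which is what pairs them. The dendritic fit was added after seeing the data. Tested on simulated data, the step recovered 96% (macrophages), 100% (T cells), 92% (ILC2-like cells) and 100% (dendritic cells) of 200 genes changed 4-fold. It made 8, 8, 6 and 9 false calls in the same order. The simulation used a dispersion of 0.05, changed only genes above a minimum expected count and gave all libraries the same mean profile. The real libraries differ, so this does not give the recovery in the fits themselves. DESeq2 1.42.0 was an alternative. Libraries, each pooled from 2 to 3 mice, are the replicates of the comparison within lineages, and none exist between conditions. Depth is given per library, and intervals are exact binomial or Poisson at 95%, or log intervals for ratios of shares.

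Named were the genes of the rule with Stmn1, Birc5 and Pclaf, up to 4 genes per list by level and 4 by fold, up to 8 rises and 8 falls per fit (called, averaging 50 CPM or more, moving the same way in each library fitted), and 5 each way between DB and WT. Other list genes were named for their known role after their values were seen. Cell type markers were taken in part from those the study used to annotate its clusters. Some sets hold other genes in place of some that it gave. A set is thus the study's own only where the text says so. 1 gene that meets these criteria is not reported here.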

Additional observations from a re-analysis of the deposited data

Results flagged for a closer look

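Some barcodes held Mki67 and Top2a but no Ptprc and so lay outside the comparisons. They numbered 13 in 12-week-WT and 5 in 12-week-DB, above the 3 counts that a count of 0 allows, and 2 in 21-week-WT and 3 in 21-week-DB. Of these 23 barcodes, 14 held at least 15 of the 73 cell cycle genes, and H2-Aa was found in 15, Krt5 in 9 and C1qa in 7.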

How the results depend on the processing

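The share of leukocytes that cycled stayed lowest in 21-week-DB under every alternative run. In WT and DB at 12 weeks and then at 21 weeks it was 2.83%, 2.12%, 3.06% and 0.202% with at least 2 UMIs of both genes, 1.44%, 1.22%, 1.59% and 0.202% after thinning to 2000 UMIs, and 3.27%, 2.69%, 3.54% and 0.188% with at least 15 list genes, an alternative chosen after seeing the data. It was 4.78% in 12-week-WT with at most 5% mitochondrial UMIs, and 3.25% in 12-week-DB and 3.98% in 21-week-WT with doublets removed. The DB to WT ratio was 0.752 (95% interval 0.591 to 0.957) at 12 weeks, which no longer includes 1, and 0.066 at 21 weeks with at least 2 UMIs, and 0.127 and 0.0531 at 21 weeks after thinning and with at least 15 list genes. The cause of these shifts was not tested.

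Counts of genes higher and lower moved with the fit. With no replicate block they were 325 and 166 in macrophages, 432 and 117 in T cells and 556 and 187 in dendritic cells, with 122 lower in ILC2-like cells. Thinning gave 61 and 198, 215 and 234, 63 and 28, and 154 and 165 in macrophages, T cells, ILC2-like cells and dendritic cells, from fewer UMIs. DESeq2 called 293 lower in macrophages, 333 higher and 106 lower in ILC2-like cells and 420 lower in dendritic cells. No filter gave 1211, 688 and 1407 lower in T cells, ILC2-like cells and dendritic cells. With doublets removed, 345 were higher and 415 lower in macrophages and 269 lower in ILC2-like cells. At least 2 UMIs gave 1499 higher and 1274 lower in dendritic cells, over 3 libraries. In every fit with at least 2 UMIs the other cells were those with neither gate gene, so the compared group changed as well. Leaving out each library in turn gave 401 to 535 higher and 336 to 539 lower in macrophages, 465 to 1194 and 339 to 942 in T cells, 331 to 658 and 154 to 568 in ILC2-like cells, and 542 to 1311 and 281 to 994 in dendritic cells.

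Some log2 differences changed sign. In macrophages of 1 lineage rule only they were -0.91 for Cd3g, -0.084 for Trbc2, -1.58 for Nkg7, -0.79 for Tcf7, -1.04 for Cd7 and -0.39 for Il2rg. With doublets removed they were -1.01 for Cd7, -0.002089 for Ctla2a and -0.054 for Il2rg, and thinned -0.095 for Cycs. For Foxp3 they ran from -0.67 without 12-week-DB to 4.33 without 21-week-WT. In ILC2-like cells Il1b was at -1.74 with at least 2 UMIs, -1.81 with doublets removed and -1.25 with 1 lineage rule only. With at least 2 UMIs Cd209a was at -0.39, Mgl2 at -0.49, H2-Ab1 at -0.49 and Cd74 at -0.62, and with doublets removed H2-Ab1 was at -0.30 and Cd74 at -0.57. Of 25 DB to WT log2 ratios of named genes with UMIs left in both libraries, removing doublets turned that of Hspb1 in T cells to -0.33 and moved 8 others outside their counting interval. These were Sparc (-0.72), Ccl17 (-5.565) and Areg (1.28) in macrophages at 12 weeks, Igkc (-2.60), Ifi27l2a (-0.76), Xcl1 (1.41) and Mgl2 (0.55) in T cells at 12 weeks, and Tnfrsf23 (4.54) in T cells at 21 weeks. Calls of genes named in the fits were lost by 165 of 264 with no replicate block, 76 of 264 with DESeq2, 9 of 264 with no filter, 4 of 264 with library totals and 2 of 264 with RLE scaling. Fewer had a value elsewhere, where 117 of 233 lost it with thinning, 61 of 260 with doublets removed, 33 of 258 with 1 lineage rule and 29 of 262 with at least 2 UMIs. It was lost by 84 of 264 without 12-week-WT, 72 of 264 without 12-week-DB, 89 of 262 without 21-week-WT and 2 of the 132 fitted with 21-week-DB without that library. Leaving out barcodes found in more than 1 library, chosen after seeing the data, cost 17 of 264 their call and reversed none.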
